A study of Mus musculus with 4 samples.

Results

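The genes described here are the integrin alpha and beta subunits and the laminin chains of the mouse. They were taken from the count table by their names: Itga followed by a number or a single letter (Itga2b included), Itgb followed by a digit, and Lama, Lamb or Lamc followed by a digit. This gave 37 genes of 32285 in the table, made up of 18 alpha subunit genes, 8 beta subunit genes and 11 laminin genes. The study sequenced RNA of GS cells, a culture of wild-type spermatogonia started from mouse testes at 10 days of age, in 2 libraries of strain 129 and 2 libraries of C57BL/6 (B6). The labels name no treatment, and all groups carry the same labelled genotype. Whether the pair of libraries of each strain stems from different animals or culture lines is not labelled, and the spread behind the p-values below may therefore be technical.

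Integrins are cell surface receptors made of an alpha and a beta subunit, and the pairing decides which matrix protein or cell surface ligand is bound. Laminins are trimers of an alpha, a beta and a gamma chain and form the sheet of the basement membrane on which spermatogonia rest in the testis. The alpha subunit of Itga6 paired with the beta subunit of Itgb1 is a laminin receptor, and both proteins are used to enrich spermatogonial stem cells of the mouse.

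Totals were 20798809 and 20375086 counts in the 129 libraries and 25374801 and 20488618 counts in the B6 libraries. Levels are given as CPM, a count relative to its library's size, which was adjusted by TMM, and strain differences are log2 fold changes of 129 over B6 with their standard error (SE). Germ cell markers were present in every library. The 10 markers of all germ cells summed to 1881 and 2533 CPM in 129 and to 3609 and 3441 CPM in B6. Of these, edgeR called 1 lower and DESeq2 called 4 lower, where 1.02% and 5.7% of all tested genes were. The 20 markers of undifferentiated spermatogonia summed to 2157 and 2718 CPM in 129 and to 1920 and 2510 CPM in B6. Among them edgeR called 1 higher, where 1.84% of all tested genes were. DESeq2 called 2 of them higher and 4 lower, where 9.63% and 5.7% of all tested genes were. The libraries also held RNA of other cell types. The 20 fibroblast markers summed to 5114 and 1836 CPM in 129 and to 5479 and 3572 CPM in B6, and the 14 Sertoli cell markers to 424 and 186 CPM in 129 and to 49.2 and 42.2 CPM in B6. Endothelial markers (12 genes) summed to 310 and 225 CPM in 129 and to 90.1 and 115 CPM in B6, and macrophage and leukocyte markers (12 genes) to 53.1 and 20.8 CPM in 129 and to 31.7 and 31.2 CPM in B6. Each of these marker genes had a count in at least 1 library, although Fshr, which defines Sertoli cells, was at 0 in both 129 libraries and in B6 replicate 2.

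Upstream sequences from RefSeq (build GRCm38.p6), where 23 of the 37 genes had an entry, are shown for the integrin gene with the largest fall in 129 (Itga11), the most abundant integrin gene (Itgb1) and an alpha subunit of a laminin receptor that lay above B6 in both 129 libraries (Itga3). Each run ends at the base before the annotated start of the gene. Capitals mark a GC box, searched as GGGCGG on both strands. The other motifs searched on both strands were the CCAAT box (CCAAT), the TATA box (TATAAA) and the AP-1 site (TGANTCA).
Itga11, chr9:62677605-62677825, plus strand: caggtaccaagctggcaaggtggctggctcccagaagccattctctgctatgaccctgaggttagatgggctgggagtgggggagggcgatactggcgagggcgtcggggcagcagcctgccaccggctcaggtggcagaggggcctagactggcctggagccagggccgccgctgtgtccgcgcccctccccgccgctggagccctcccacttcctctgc
Itgb1, chr8:128685404-128685653, plus strand: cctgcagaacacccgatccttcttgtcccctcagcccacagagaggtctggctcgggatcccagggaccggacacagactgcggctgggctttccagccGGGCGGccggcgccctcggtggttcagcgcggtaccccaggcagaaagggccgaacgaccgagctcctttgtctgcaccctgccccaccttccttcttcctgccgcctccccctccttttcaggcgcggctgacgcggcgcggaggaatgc
Itga3, chr11:95076802-95076964, minus strand: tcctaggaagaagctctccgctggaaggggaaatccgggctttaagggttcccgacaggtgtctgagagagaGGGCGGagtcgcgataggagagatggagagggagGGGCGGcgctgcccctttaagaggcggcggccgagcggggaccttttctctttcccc
The run of Itga3 held 2 GC boxes, that of Itgb1 held 1 and that of Itga11 held 0. Over the same stretch of all 32851 promoter entries, 18.4% held a GC box at the length of Itga3, 32.7% at that of Itgb1 and 28.7% at that of Itga11. None of the runs held a CCAAT box, a TATA box or an AP-1 site, which 33.8%, 12.4% and 6.75% of all entries held at the length of Itgb1. At the lengths of Itga11 and Itga3 those shares were 31.1%, 9.99% and 6.13%, and 21.9%, 7.78% and 4.47%. The runs were rich in G and C, at 69.2% in Itga11, 68.0% in Itgb1 and 62.6% in Itga3, against medians of 52.0%, 52.4% and 50.9% over all entries.

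The members spanned a wide range of levels, with Itgb1 far above the rest. To set genes side by side, CPM were divided by the kb of merged exons of each gene, a choice on which the order below Itgb1 in part depends. On that scale Itgb1, the beta subunit shared by most integrins that bind laminin, collagen or fibronectin, stood at 145 and 115 CPM per kb in 129 and at 135 and 91.1 CPM per kb in B6. Next came Itgb5, a beta subunit that pairs with Itgav, at 69.1 and 36.2 CPM per kb in 129 and 16.9 and 29.3 CPM per kb in B6. Itgb1 was above Itgb5 in all 4 libraries, with no overlap of their ranges. Every other pair of neighbours in the order of mean level, 35 of 36, had overlapping ranges over the 4 libraries. Within libraries, 5 of the 36 pairs kept their order in all 4: Itgb1 over Itgb5, Lamb1 over Lamc1, Itga3 over Lamb2, Itgal over Itgae and Itga10 over Itgam.

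**Figure D1:**
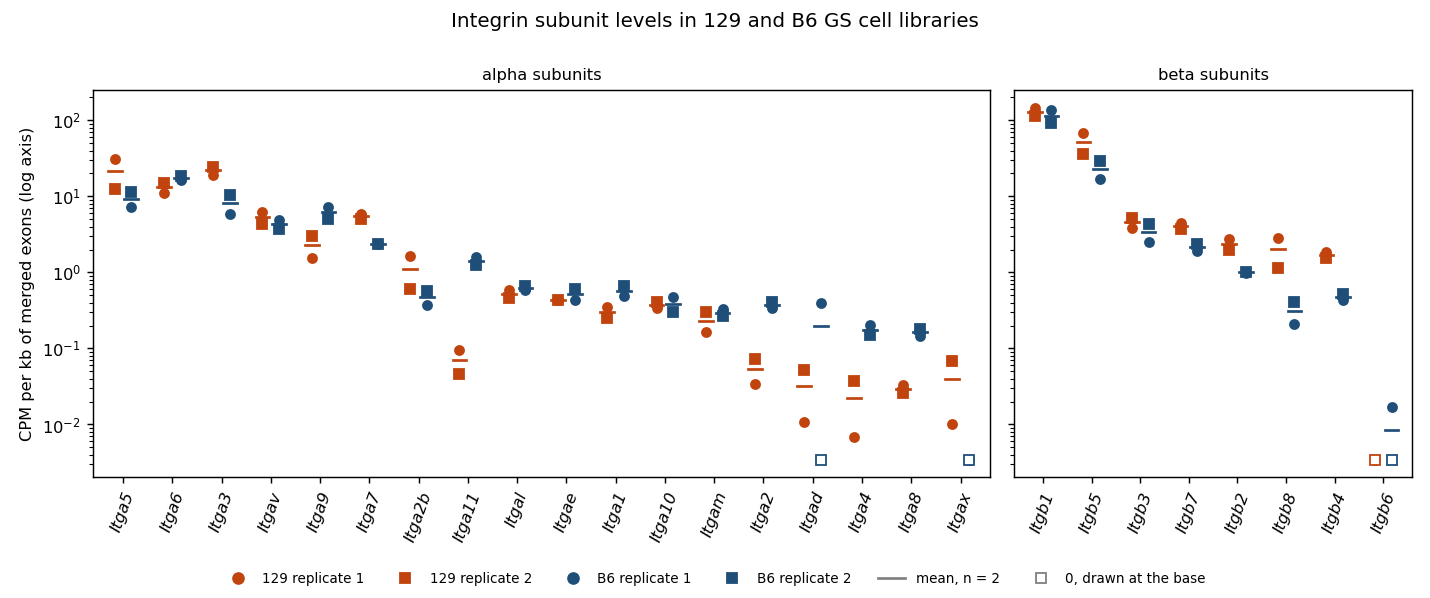
Levels of the 18 alpha and 8 beta integrin subunit genes in CPM per kb of merged exons (log axis), 1 point per library, with a bar at the mean of each strain (n = 2). Itgb1 stands above all other genes. Itga11, Itga2, Itga4 and Itga8 lie lower in both 129 libraries than in both B6 libraries, and were tested through their B6 level alone. Of the 16 tested alpha subunits 8 lie below and 4 above B6 in both 129 libraries, 75% in all. Libraries did not overlap in 60.1% of all tested genes.

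The laminin chains that followed were Lamb1, Lamc1 and Lama5, a beta, a gamma and an alpha chain that can assemble with one another. Lamb1 stood at 38.4 and 22.03 CPM per kb in 129 and 36.3 and 27.6 CPM per kb in B6. Lamc1 stood at 30.9 and 17.9 CPM per kb in 129 and 17.5 and 18.3 CPM per kb in B6. For Lama5 the level was 29.4 and 19.0 CPM per kb in 129 and 9.86 and 12.7 CPM per kb in B6. The strains overlapped for Lamb1 and Lamc1, and 129 lay above B6 for Lama5. Among alpha subunits the highest mean levels were those of Itga5, Itga6 and Itga3, at 15.5, 15.4 and 15.0 CPM per kb over all libraries, with overlapping ranges. Their nearness depends on the length used. By the longest transcript the share of Itga6 among alpha subunits was 26.8% in 129 and 45.5% in B6, against 18.2% and 33.3% by merged exons.

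Between the strains, 33 of the 37 genes passed the filter on low counts and were tested, and 2 of them fell in 129 and none rose. The genes that fell were Lama4 and Itga11. They made up 6.06% of the 33 tested members, where 2.86% of all 16005 tested genes were called, 1.84% as higher and 1.02% as lower in 129 (edgeR quasi-likelihood test, Benjamini-Hochberg adjusted p under 0.05). At an unadjusted p under 0.05 there were 17 members, where 28.1% of all tested genes were. DESeq2 called 12 of the 33 members, 7 higher and 5 lower, where it called 15.3% of all genes, 9.63% as higher and 5.7% as lower. With library totals in place of TMM edgeR called 8 members, 5 higher and 3 lower, where 6.57% of all genes were called (4.66% higher and 1.91% lower). A replicate block gave 3 members, where 5.27% of all genes were called (3.89% higher and 1.38% lower), and the legacy form of the edgeR test gave 2, where 2.54% were (1.67% higher and 0.862% lower). Of the tested members, 28 passed the filter on low counts in both strains, and 1 of these (Lama4) was called, or 3.57%. Itga2, Itga4, Itga8 and Itga11 passed through B6 alone, and Lamb3 passed through 129 alone. A difference in those 5 genes is therefore partly built into their being tested.

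Lama4 encodes a laminin alpha chain known from the basement membranes of blood vessels, muscle and fat. It lies on mm10 at chr10:38965515-39110188 on the plus strand. It stood at 10.9 and 7.87 CPM in 129 and at 60.9 and 43.8 CPM in B6, and the strains did not overlap. The means were 9.39 ± 2.15 CPM in 129 and 52.3 ± 12.1 CPM in B6 (SD, n = 2 each), a log2 fold change of -2.48 (SE 0.33, edgeR adjusted p = 0.030). Without B6 replicate 1, B6 replicate 2 or 129 replicate 1 the call ended, with edgeR adjusted p = 0.16, 0.092 and 0.13, while the log2 fold change stayed between -2.74 and -2.23.

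Itga11 encodes the alpha subunit of a collagen receptor of fibroblasts and other mesenchymal cells, which pairs with Itgb1. The gene lies on mm10 at chr9:62677826-62783982 on the plus strand, just after the upstream run shown above. It stood at 0.483 and 0.237 CPM in 129, which are 10 and 5 counts, and at 8.20 and 6.44 CPM in B6, which are 204 and 130 counts. Both 129 libraries lay below both B6 libraries, where libraries did not overlap in 60.1% of all tested genes. The log2 fold change was -4.33 (SE 0.62, edgeR adjusted p = 0.033). Itga11 was tested through its B6 level alone, so part of this difference is built into its being tested. Leaving out any of the 4 libraries ended the call, with edgeR adjusted p between 0.057 and 0.16 and log2 fold changes between -4.91 and -3.91.

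The fibroblast marker sums given above were lowest in 129 replicate 2, and single markers went either way. Col1a1, a fibrillar collagen gene, stood at 465 and 190 CPM in 129 and at 1113 and 664 CPM in B6, while Dcn, the proteoglycan decorin, stood at 538 and 232 CPM in 129 and at 119 and 149 CPM in B6. Of the 20 tested markers 1 rose and none fell in edgeR, where 1.84% and 1.02% of all tested genes did. The gene that rose was Pdgfra, at 196 and 103 CPM in 129 and 42.7 and 38.8 CPM in B6 (edgeR adjusted p = 0.044). The median log2 fold change of these markers was -0.25. DESeq2 called 6 higher and 6 lower, where 9.63% and 5.7% of all tested genes were. The part of these cells in the falls of Lama4 and Itga11 was not tested. In such bulk libraries fewer cells of a type and less RNA per cell cannot be told apart.

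**Figure D2:**
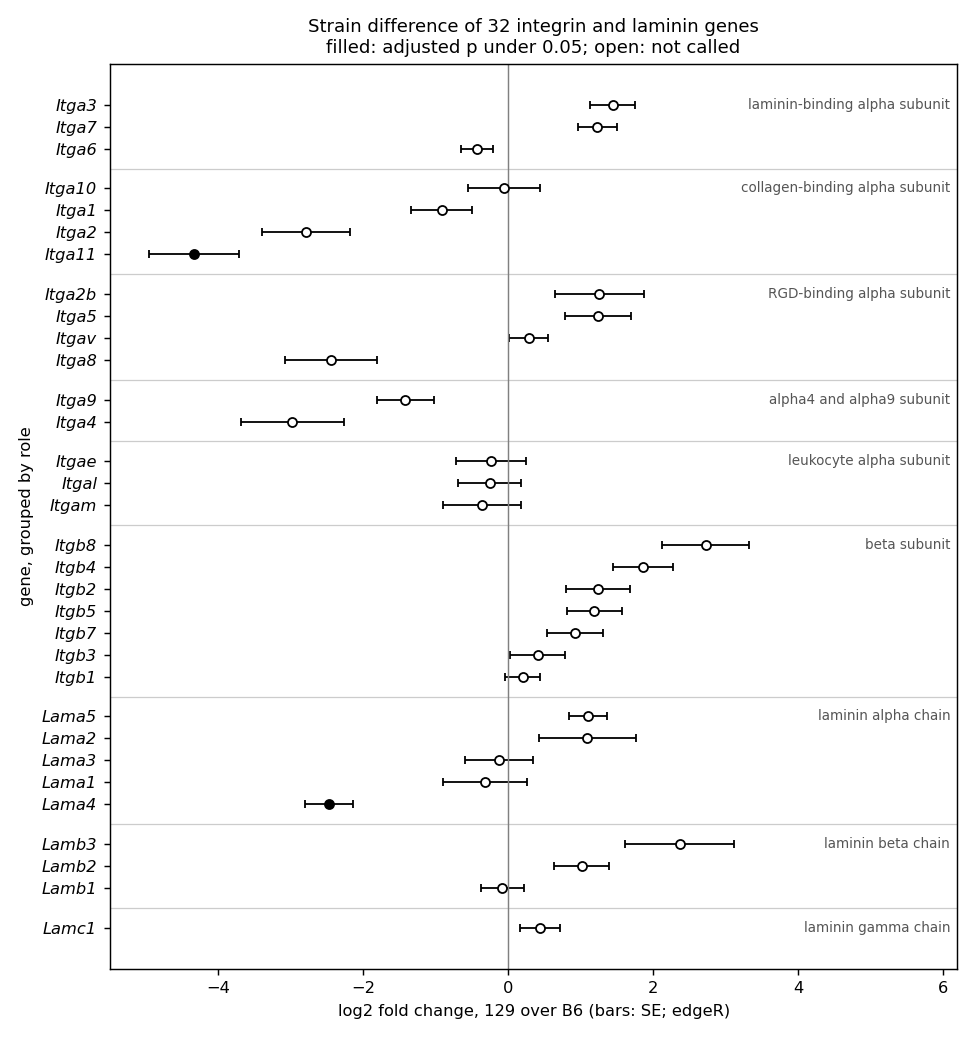
Log2 fold changes of 129 over B6 with SE from edgeR for 32 of the 33 tested genes, grouped by role. Filled points mark the genes with an adjusted p under 0.05, Lama4 and Itga11, both lower in 129. The 7 tested beta subunits all lie to the right of 0, where 129 is higher, and none of them passed the test.

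The laminin receptor subunits differed in direction without passing the edgeR test. Itga6 (chr2:71745616-71858416, plus strand) stood at 99.0 and 137 CPM in 129 and at 150 and 168 CPM in B6, with a log2 fold change of -0.43 (SE 0.22, edgeR adjusted p = 0.26) and both 129 libraries below B6. The summed markers of all germ cells, given above, were also lower in both 129 libraries. Those of undifferentiated spermatogonia overlapped between the strains. The part of either in the value of Itga6 was not tested. Its partner Itgb1 (chr8:128685654-128733200, plus strand) stood at 594 and 470 CPM in 129 and at 553 and 372 CPM in B6, where the strains overlapped (0.20, SE 0.24, edgeR adjusted p = 0.62). Itga3, the alpha subunit of another laminin receptor with Itgb1, stood at 109 and 141 CPM in 129 and at 33.3 and 58.8 CPM in B6, with 129 above B6 (1.44, SE 0.31, edgeR adjusted p = 0.055). Itga7, a laminin receptor subunit best known from muscle, was at 48.2 and 40.4 CPM in 129 and 18.92 and 18.86 CPM in B6 (1.23, SE 0.27, edgeR adjusted p = 0.055). In DESeq2, Itga3 and Itga7 passed as higher in 129 (adjusted p = 0.0014 and 7.2e-04) and Itga6 did not (adjusted p = 0.34).

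The ratio of Itga6 to Itga3 differed between the libraries of the strains, although neither gene was called in edgeR. The level of Itga6 per kb was 0.572 and 0.616 times that of Itga3 in the 129 libraries, and 2.85 and 1.80 times that of Itga3 in the B6 libraries. By the length of the longest transcript in place of merged exons, the ratios were 1.02 and 1.10 in 129 and 5.09 and 3.22 in B6, so both strains lay above 1. Both 129 libraries lay below both B6 libraries, an order that the choice of length cannot change because it scales every library alike. Itga6 took 13.96% and 22.5% of the summed alpha subunit level in 129 and 33.7% and 32.9% in B6, while Itga3 took 24.4% and 36.5% in 129 and 11.8% and 18.2% in B6. The libraries of the strains did not overlap for either share, and in CPM they did not overlap for 60.1% of all tested genes. With 2 libraries per strain, an exact two-sided permutation test of such a single value cannot go below p = 0.333, so no test was made. Itgb4, which pairs with Itga6 in the hemidesmosome, stood at 13.0 and 10.95 CPM in 129 and at 3.01 and 3.61 CPM in B6 (1.86, SE 0.41, edgeR adjusted p = 0.057), and passed in DESeq2 (adjusted p = 4.8e-04).

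**Figure D3:**
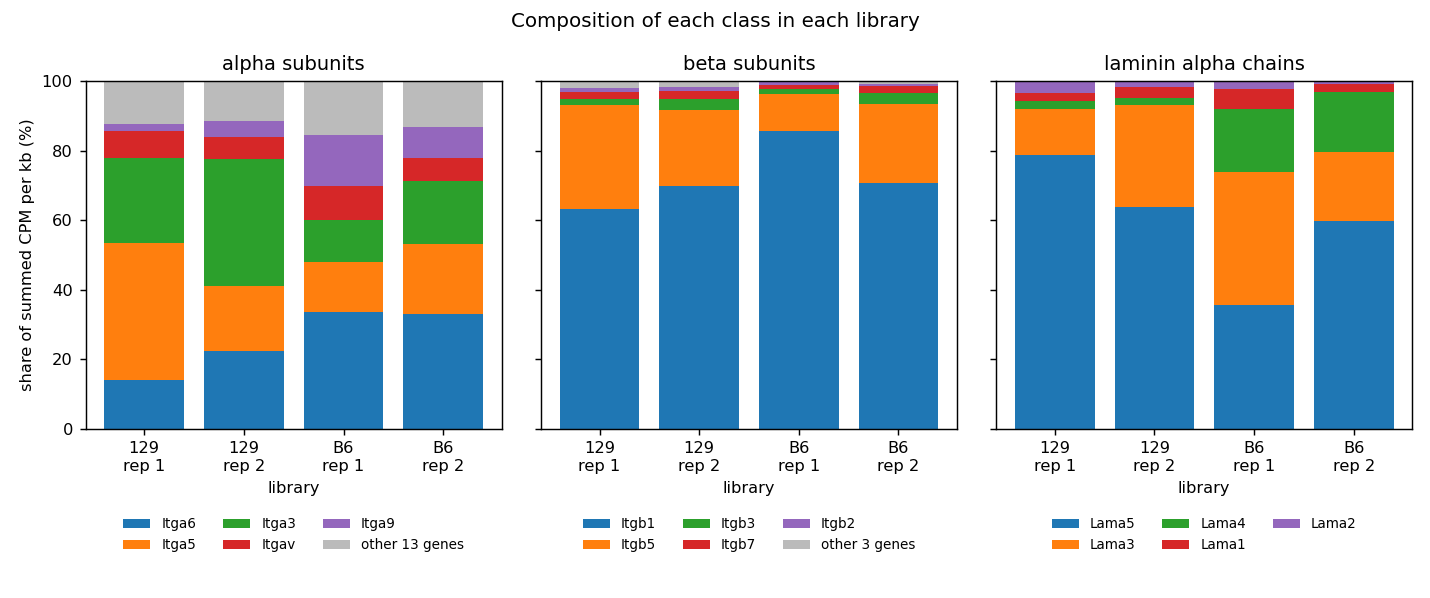
Share of each gene in the summed CPM per kb of the alpha subunits, beta subunits and laminin alpha chains, 1 stacked bar per library. Itga6 takes 13.96% and 22.5% of the alpha subunit level in 129 against 33.7% and 32.9% in B6, and Lama4 takes 2.43% and 2.19% of the laminin alpha chain level in 129 against 18.2% and 17.1% in B6.

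The collagen receptor subunits, which pair with Itgb1, had log2 fold changes below 0 in all 4 genes, as had 49.1% of all tested genes. Itga2 and Itga11 were tested through their B6 level alone, and Itga10, at -0.06, changed sign when a library was left out. Beside Itga11, Itga2 stood at 0.242 and 0.522 CPM in 129 and at 2.45 and 2.92 CPM in B6 (-2.79, SE 0.61, edgeR adjusted p = 0.055), with the strains apart. Itga1 was at 6.57 and 4.69 CPM in 129 and 9.08 and 12.3 CPM in B6 and did not pass. Itga10 overlapped between the strains, and 33.5% of its merged exons are shared with Gm42957 on the same strand, so its counts are uncertain. The related pair Itga4 and Itga9, whose products bind VCAM1, tenascin C and other ligands, was also lower in both 129 libraries. Itga9 stood at 11.8 and 23.5 CPM in 129 and at 55.8 and 38.7 CPM in B6 (-1.42, SE 0.39, edgeR adjusted p = 0.082), and Itga4 at 0.0966 and 0.522 CPM in 129 and 2.81 and 2.13 CPM in B6 (-2.98, SE 0.70, edgeR adjusted p = 0.062). DESeq2 called Itga2, Itga4 and Itga9 lower in 129 (adjusted p = 0.017, 0.035 and 0.010).

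Among subunits of receptors for RGD-bearing ligands such as fibronectin and vitronectin, Itga5, Itga2b, Itgb5 and Itgb8 were higher in 129 replicate 1 than in 129 replicate 2. Itga5, the fibronectin receptor subunit, stood at 153 and 61.7 CPM in 129 and at 35.2 and 56.1 CPM in B6 (1.24, SE 0.46, edgeR adjusted p = 0.14), so 129 replicate 2 lay close to the higher B6 library. Without 129 replicate 2 it passed (1.75, edgeR adjusted p = 0.049), and without 129 replicate 1 it was at 0.44 (edgeR adjusted p = 0.65). Itgb5 stood at 245 and 128 CPM in 129 and at 59.9 and 104 CPM in B6 (1.19, SE 0.38, edgeR adjusted p = 0.11). Itgb8, which pairs with Itgav and takes part in the activation of latent TGF-beta, stood at 31.8 and 12.5 CPM in 129 and at 2.29 and 4.51 CPM in B6 (2.72, SE 0.60, edgeR adjusted p = 0.057). Without 129 replicate 2 Itgb8 passed (3.24, edgeR adjusted p = 0.032), while it was at 1.91 without 129 replicate 1 and at 2.29 without B6 replicate 1 (edgeR adjusted p = 0.29 and 0.22). In DESeq2 both Itgb8 (adjusted p = 1.1e-04) and Itgb5 (adjusted p = 0.034) passed with all libraries. Itgav, the partner of these beta subunits, overlapped between the strains at 66.3 and 47.2 CPM in 129 and 52.5 and 40.5 CPM in B6. Itgb3, another of its partners, overlapped as well, at 22.5 and 31.1 CPM in 129 and 14.7 and 25.9 CPM in B6. Itga2b, the platelet subunit that pairs with Itgb3, was at 8.99 and 3.27 CPM in 129 and 2.05 and 3.12 CPM in B6, and Itga8 at 0.242 and 0.190 CPM in 129 and 1.08 and 1.34 CPM in B6, neither passing.

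Itga5 and Itgb7 lie on chromosome 15, where the median log2 fold change of 664 tested genes was 0.51, against 0.015 over all tested genes. Itgb7, a partner of Itga4 in leukocytes, stood at 12.2 and 10.3 CPM in 129 and at 5.34 and 6.58 CPM in B6 (0.92, SE 0.39, edgeR adjusted p = 0.18). The part of the chromosome in the values of these genes was not tested. On the 13 other chromosomes that hold members the medians ran from -0.15 to 0.17.

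Leukocyte integrins were low. Itgal and Itgae lay between 1.97 and 4.36 CPM in all 4 libraries. Itgb2, the beta subunit that pairs with Itgal and Itgam in leukocytes, stood at 8.36 and 6.07 CPM in 129 and 2.97 and 3.12 CPM in B6 (1.24, SE 0.44, edgeR adjusted p = 0.13). Itgam was at 0.821 and 1.52 CPM in 129 and 1.65 and 1.34 CPM in B6, and 68.7% of its merged exons are shared with Gm49368. Itgad, Itgax, Itgb6 and Lamc3 did not pass the filter on low counts and were not tested. For Itgad and Lamc3 only 1 library lay over its cutoff of 0.484 CPM. Itgad had 1 and 5 counts in 129 and 44 and 0 counts in B6, so nearly all of its reads came from B6 replicate 1. Itgax had 1 and 7 counts in 129 and none in B6, and the lower 95% exact counting limit of its ratio of 129 to B6 was 1.84. Itgb6 had no count in 129 and 3 in B6, too few for a fold, and Lamc3 had 23 counts in 129 and 9 in B6, a ratio of 2.76 (95% exact counting interval 1.23 to 6.77). The interval and the limit take in counting error alone, and reads that carry no molecular identifier may stem from the same molecule.

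**Figure D4:**
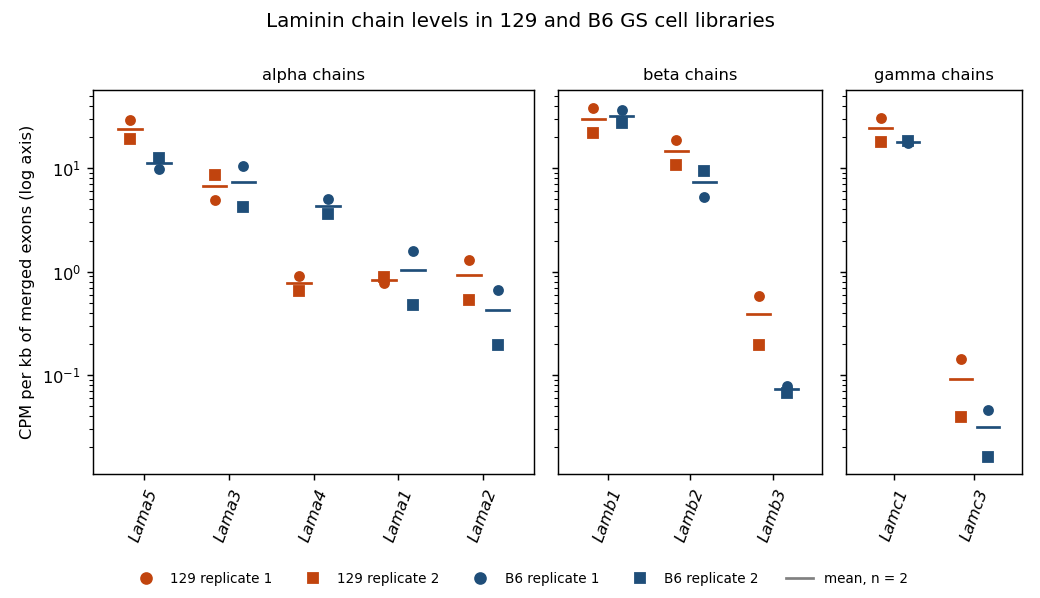
Levels of 10 laminin chain genes in CPM per kb of merged exons (log axis), 1 point per library, with a bar at the mean of each strain (n = 2). Lama4 lies lower and Lama5, Lamb2 and Lamb3 lie higher in both 129 libraries than in both B6 libraries. Lamb3 was tested through its 129 level alone, and libraries did not overlap in 60.1% of all tested genes.

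Among laminin alpha chains, the ratio of Lama5 to Lama4 differed between the strains, which in part restates the fall of Lama4 described above. Lama5, the alpha chain of many epithelial basement membranes, stood at 334 and 216 CPM in 129 and at 112 and 144 CPM in B6 (1.10, SE 0.26, edgeR adjusted p = 0.063), with the strains apart. DESeq2 called it higher in 129 (adjusted p = 0.0084), and edgeR did so without 129 replicate 2 (1.38, adjusted p = 0.043) but not without 129 replicate 1 (0.76, adjusted p = 0.32). Within a library Lama5 was 32.5 and 29.1 times as high per kb as Lama4 in 129, and 1.96 and 3.49 times as high in B6. By the length of the longest transcript, which scales every library alike, the ratios were 16.3 and 14.6 in 129 and 0.980 and 1.75 in B6. Lama3, an alpha chain of epithelial adhesion structures, was at 52.8 and 93.3 CPM in 129 and 114 and 45.8 CPM in B6, and Lama1, the alpha chain of early embryonic basement membranes, at 7.58 and 8.63 CPM in 129 and 15.3 and 4.65 CPM in B6. Both were higher in B6 replicate 1 than in any other library and lowest in B6 replicate 2. Lama2, the muscle chain, overlapped between the strains and was higher in replicate 1 of each, at 21.4 and 8.72 CPM in 129 and 10.8 and 3.17 CPM in B6.

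Of the beta and gamma chains none passed the edgeR test. Lamb1 was at 381 and 218 CPM in 129 and 360 and 274 CPM in B6 (-0.08, SE 0.29), and Lamc1 at 256 and 148 CPM in 129 and 145 and 152 CPM in B6 (0.44, SE 0.27), both with overlapping strains. Lamb2, the beta chain of synaptic and kidney basement membranes, stood at 115 and 65.1 CPM in 129 and 32.1 and 57.1 CPM in B6 (1.02, SE 0.38, edgeR adjusted p = 0.14). Lamb1 was 2.03 and 2.06 times as high per kb as Lamb2 in 129, and 6.88 and 2.94 times in B6. By the longest transcript this was 3.22 and 3.26 in 129 and 10.9 and 4.66 in B6. Lamb3, which joins Lama3 in the laminin of skin, stood at 3.82 and 1.28 CPM in 129 and at 0.522 and 0.446 CPM in B6 (2.37, SE 0.75, edgeR adjusted p = 0.10). The Sertoli and endothelial marker sums given above were also higher in both 129 libraries than in B6, and their part in the laminin and beta subunit values was not tested.

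As a whole the members had a median log2 fold change of 0.29, where all tested genes had 0.015. Of the 33 tested, 18 had a positive and 15 a negative value, from -4.33 for Itga11 to 2.72 for Itgb8. The size was beyond 1 in 19 members, or 57.6%, where it was in 24.0% of all tested genes. In 13 members both 129 libraries lay above both B6 libraries and in 9 below, 66.7% in all, where 60.1% of all tested genes had libraries that did not overlap. Both counts include the 5 genes that passed the filter on low counts through 1 strain alone, all of them beyond 1 and not overlapping. Of the 28 members that passed it in both strains, 14 were beyond 1, and 12 lay above and 5 below, 60.7% in all, which is near the share over all genes. The median log2 fold change of these 28 was 0.42. By role, the median was 1.19 over the 7 tested beta subunits, -0.31 over the 16 tested alpha subunits and 0.73 over the 10 tested laminin chains. These alpha subunits include the 4 genes that passed the filter through B6 alone. The laminin chains include Lamb3, which passed through 129 alone. Both medians are therefore partly built into which genes were tested. The 129 libraries also differed from each other: 129 replicate 1 was above 129 replicate 2 by a median of 0.79 (log2) over the tested laminin chains, and by -0.0046 over all tested genes.

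Genes that work with integrins and laminins were read from lists chosen for this report with earlier results of these data known. Over all tested genes edgeR called 1.84% higher and 1.02% lower in 129, and the median log2 fold change was 0.015. Of 31 tested genes of the adhesion complex that links integrins to actin, 1 rose and none fell, with a list median of 0.61. The gene that rose was Parvb, an actin-binding parvin, with 1035 and 463 counts in 129 and 99 and 37 counts in B6 (3.60, SE 0.58, edgeR adjusted p = 0.038). It lies on chromosome 15, described above. Of 20 other basement membrane genes none rose and 1 fell (list median -0.32): Col15a1, a collagen of basement membrane zones, at 0.628 and 0.332 CPM in 129 and 8.24 and 4.46 CPM in B6 (-3.73, SE 0.67, edgeR adjusted p = 0.047), which was tested through its B6 level alone.

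Among 29 further laminin receptors and membrane partners of integrins 4 rose and none fell, with a list median of 0.52. Of all tested genes 1.84% were called higher and 1.02% lower. Bcam, a receptor for the laminin chain of Lama5, stood at 14.6 and 21.6 CPM in 129 and at 0.482 and 2.18 CPM in B6 (3.83, SE 0.64, edgeR adjusted p = 0.040), and was tested through its 129 level alone. Lgals3, a galectin that binds laminin and integrin sugars, stood at 330 and 114 CPM in 129 and at 18.4 and 15.0 CPM in B6 (3.73, SE 0.52, edgeR adjusted p = 0.034). The other two were the tetraspanin genes Cd82, at 80.8 and 81.7 CPM in 129 and 15.3 and 26.9 CPM in B6, and Cd9. Tetraspanins are membrane proteins that associate with laminin-binding integrins.

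Of 27 tested integrin ligands other than laminins 2 rose and 2 fell, where 1.84% and 1.02% of all tested genes did. The list median was 0.33. Spp1, osteopontin, rose to 2493 and 761 CPM in 129, against 202 and 194 CPM in B6 (3.04, SE 0.53, edgeR adjusted p = 0.047), and Tgfb1, whose latent form is bound by integrins of Itgav, to 67.0 and 68.6 CPM in 129, against 13.3 and 20.05 CPM in B6 (2.03, SE 0.29, edgeR adjusted p = 0.033). Tnc, the tenascin bound by the integrin of Itga9, fell to 33.4 and 8.96 CPM in 129, against 338 and 378 CPM in B6 (-4.08, SE 0.58, edgeR adjusted p = 0.034). Edil3, a ligand of Itgav integrins, had 2 and 0 counts in 129 and 76 and 29 counts in B6 and also fell (edgeR adjusted p = 0.044), although it was tested through its B6 level alone.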

How the data were processed

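The authors deposited 1 table with a raw count for each of 32285 genes in each library. Tools named in the submitters' processing notes are DESeq2 (1.30.1), HTSeq (0.13.5), HISAT2 (2.2.1), cutadapt (3.4) and bcl2fastq (2.20), and the build named is mm10. The kit was a strand-specific one for mRNA, per the labels' protocols, and reads were single, of 76 bp, per the series' design text. Which annotation and strand option HTSeq was given is not stated in the sources used here, so overlapping genes on either strand can share counts. Alignment to a genome of C57BL/6 can lose 129 reads at strain variants.

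All genes were fitted in edgeR 4.0.16 (R 4.3.3) with filterByExpr, which kept 16005, TMM and the robust quasi-likelihood test of strain. Adjusted p is by Benjamini-Hochberg, with a threshold of 0.05, and SE is the size of the log2 fold change over the root of F. Exon lengths came from GENCODE M21, which held 32235 of the identifiers. Merged exons include rare transcripts, so levels per kb are approximate. Libraries of a strain were not duplicates (chi-square per gene 75.6 in 129 and 59.3 in B6). On counts simulated for 129 against B6 (15654 genes), 100 genes were changed by 2 and 100 by 3 on the log2 scale, and no others. Of these 75% and 94% were called, and 14.6% of calls were false, above the nominal 5%. In the data 24.0% of tested genes had a log2 fold change beyond 1, so the simulated shares need not hold for the calls made there.

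The members and gene lists were chosen with earlier results of these data known, and no list was tested as a set. Values in every library are given for Itga6, Itgb1, called members and the 3 highest per kb among alpha subunits, beta subunits and laminin chains, and for others by role. The values of 1 member are not reported here, although it is counted in the totals. From the lists up to 2 called genes per direction are described, and others are named where the count was 5 or fewer. Alternatives were another normalization, other filters, DESeq2 1.42.0, a replicate block, other lengths and leaving out each library.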

Additional observations from a re-analysis of the deposited data

How the results depend on the processing

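The number of integrin and laminin genes called was 2 with all libraries, TMM and edgeR, and stayed at 2, Lama4 and Itga11, with DESeq2 size factors in edgeR, with no filter on low counts, with a stricter filter and with the legacy form of the edgeR test, which was chosen after seeing the data. Library totals without TMM gave 8 calls (5 higher, 3 lower, where 6.57% of all genes were called) and DESeq2 1.42.0 gave 12. Leaving out 1 library gave 0 to 4 calls: 4 without 129 replicate 2 (19 members at an unadjusted p under 0.05, as were 22.9% of all genes), and 0 in edgeR without B6 replicate 1, B6 replicate 2 or 129 replicate 1 (11, 15 and 11 members, and 19.5%, 24.4% and 13.2% of all genes). Over all genes there were 457 calls, against 1052 with library totals, 260 with no filter, 293 with the stricter filter, 2455 with DESeq2 and 0 to 827 without 1 library. The 4 related lists, of 31, 20, 29 and 27 tested genes, held 10 calls, where 2.86% of all tested genes were called. They held 6 with no filter and 26 with DESeq2, which called 15.3% of all tested genes. A replicate block of the shared numbers gave 844 calls over all genes, 16 in the lists and 3 members, with Itga3 added. What the replicate numbers stand for is not labelled. Deviations of same-numbered libraries from their strain means had a correlation of -0.019 over the tested genes. Whether such libraries shared a batch was not tested. Direction changed only for Itga10 (-0.36 to 0.30 without 1 library), Itgam (-0.86 to 0.019), Itgb1 (-0.099 to 0.51), Lama1 (-0.96 to 0.79), Lama3 (-0.68 to 0.67), Lamb1 (-0.53 to 0.27) and Lamc1 (-4.5e-04 to 0.79), none of which was called. By length of the longest transcript in place of merged exons, the share of Itga6 among alpha subunits was 26.8% in 129 and 45.5% in B6 (18.2% and 33.3% by merged exons). Among laminin chains those of Lama5 were then 18.2% and 10.1% (22.9% and 13.8%), of Lamb1 38.5% and 48.3% (28.3% and 38.5%), and of Lamc1 19.7% and 17.4% (22.9% and 21.8%). For the changes listed here the cause was not tested. Itgad, Itgax, Itgb6 and Lamc3, which had at most 44 counts in a strain, did not pass the filter on low counts.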
